A study of Mus musculus with 30 samples.

Results

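Brain endothelial cells (ECs) take up several large ligands from the blood by receptor-mediated transport, and the 8 receptors Tfrc, Insr, Igf1r, Igf2r, Lepr, Lrp1, Lrp8 and Ager were followed here among 21847 protein-coding genes. They were chosen by name, because they bind transferrin, insulin, insulin-like growth factors, leptin, apolipoprotein E and related ligands, and advanced glycation end products. In receptor-mediated transport, a ligand binds its receptor on the blood side of the EC, the complex is taken into a vesicle, often one coated with clathrin, and the vesicle is either sorted to the lysosome, returned to the surface or released on the brain side. The transferrin and insulin receptors of brain ECs are widely used as routes for carrying antibodies and other large molecules into the brain. Lrp1 has been studied mainly for clearance of amyloid beta from brain to blood, and Ager for its entry in the opposite direction.

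The study asked how brain ECs change between the animal and primary culture, and whether stabilized beta-catenin, the effector of canonical Wnt signaling, alters the cultured state. RNA-seq was available for 14 libraries from adult male mice. The 2 libraries of acutely isolated ECs and the 2 of GFP-negative cells came from Tie2-GFP mice, in which the Tie2 (Tek) promoter drives GFP in ECs, and the cells were separated by FACS. The 6 WT cultured libraries were wells of brain ECs selected with puromycin and grown for 8 days. WT replicates 1 and 2 came from C57BL/6J mice, and WT replicates 3 to 6 from Ctnnb1flex3/+;Tie2-GFP mice without Cre, which carry the floxed Ctnnb1 allele but keep exon 3. The 4 beta-catenin stabilized libraries came from Ctnnb1flex3/+;Pdgfb-CreER;Tie2-GFP mice, in which Cre expressed in ECs removes Ctnnb1 exon 3 after 4-hydroxytamoxifen. By the study's methods, 4-hydroxytamoxifen was given before weaning to the stabilized mice and to the WT control mice with the floxed allele, and brains of several mice were pooled for each culture. Whether the C57BL/6J mice received it too is not clear from the sources used here. ATAC-seq peak lists were available for 2 acutely isolated, 6 WT cultured and 2 stabilized libraries.

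Some features of the design touch every result below. The acutely isolated cells were read as single ends of 75 cycles from amplified cDNA, and the cultures as read pairs, so that culture and library type cannot be told apart. Among RNA-seq cultures, WT replicates 1 and 2 and stabilized replicates 1 and 2 were isolated by method A (papain) and the others by method B (Dounce homogenization and collagenase). Among ATAC-seq cultures, method A was used for WT replicates 1 and 2 only, and both stabilized libraries came from method B. RNA-seq WT replicates 3 and 4 were prepared by another facility and read for 150 cycles, all other cultures for 36. Isolation methods are given as in the study's methods section. A figure legend of the study differs, placing only the WT pair from the other facility under method B and the other WT libraries under method A. Replicates within an experiment are wells, so p-values measure the spread between these wells and sorted pools. The libraries held 24284843 to 94686456 estimated counts, and counting error was small for all receptors but Ager and, in cultures, Lepr. Lepr held 36.8 to 254 estimated counts in WT cultures. EC markers were high in all 3 EC groups, with a summed level of 3126 to 9237 against 15.7 to 51.0 in GFP-negative cells, and none of the 8 EC markers was below 1 in every library of an EC group. In WT cultures 4 of these 8 markers were called lower than in acutely isolated ECs and 1 higher, by the test described below. The acutely isolated libraries also held hemoglobin and other erythroid transcripts (summed level 17088 to 88448, at most 2.49 in cultures) and pericyte markers (1089 to 1651, at most 25.5 in cultures). Astrocyte markers were at 188 and 1463 in acutely isolated ECs and at most 46.4 in cultures, and mitochondrial genes held 10.6% and 11.2% of counts against 0.667% to 2.58%. The astrocyte sum in acutely isolated ECs was mostly Gja1, at 142 and 1457, and Gja1 was at 43.9 in the culture with the highest sum. In acutely isolated ECs Aqp4 and Gfap were at 0.664 to 1.66, Aldh1l1 at 17.9 and 0.0995 and Slc1a3 at 25.5 and 4.12. Smooth muscle markers moved the other way, with 462 and 731 in acutely isolated ECs and 987 to 7545 in WT cultures, and 3 of 4 were called higher in WT cultures and 1 lower. They also split by experiment, at 987 to 1445 (WT) and 660 to 731 (stabilized) in method A and at 7244 to 7545 and 6060 to 6491 in method B at 36 cycles. The part of these transcripts in the differences below was not tested.

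Levels are given as scaled TPM, the deposited TPM (transcript abundance corrected for length, relative to the library) summed over the transcripts of a gene and brought to one scale across the 14 libraries. Deposited TPM was not used for levels, because protein-coding genes held from 36.3% to 94.8% of it. The 7SL RNA gene Rn7s1 alone held 21.8% to 45.5% in the 36-cycle cultures, 0.509% to 0.596% in the 150-cycle cultures and at most 0.0230% in the sorted cells. Differences are log2 fold changes of estimated counts, tested with edgeR's quasi-likelihood test on all genes, with Benjamini-Hochberg adjustment. Called higher or lower means an adjusted p under 0.05, a change of over 2-fold and a deposited TPM of at least 5 in each library of the higher group. In bulk samples of this kind, fewer cells of a type and less RNA per cell cannot be told apart.

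RefSeq promoter windows, 250 bases before to 50 after a gene's start on GRCm38.p6, were found for 7 of the 8 receptors. The windows of Tfrc, Igf1r and Igf2r are shown because an ATAC-seq peak overlapped each of them in at least 9 of the 10 libraries, and because these receptors had the highest mean levels in WT cultures. Capitals mark matches to 4 motifs searched on both strands, the TCF/LEF core CTTTGA, the E-box CACGTG, the GC box GGGCGG and the cyclic AMP response element core TGACGT. Positions count the first base of a match from the RefSeq start.
Tfrc, chr16:32608646-32608945, plus strand: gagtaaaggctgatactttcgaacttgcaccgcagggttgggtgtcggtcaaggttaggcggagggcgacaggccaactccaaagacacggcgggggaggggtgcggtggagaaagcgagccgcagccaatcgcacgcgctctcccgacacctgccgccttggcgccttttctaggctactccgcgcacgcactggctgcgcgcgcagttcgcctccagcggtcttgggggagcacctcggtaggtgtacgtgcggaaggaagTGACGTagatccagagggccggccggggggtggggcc
Igf1r, chr7:67952007-67952306, plus strand: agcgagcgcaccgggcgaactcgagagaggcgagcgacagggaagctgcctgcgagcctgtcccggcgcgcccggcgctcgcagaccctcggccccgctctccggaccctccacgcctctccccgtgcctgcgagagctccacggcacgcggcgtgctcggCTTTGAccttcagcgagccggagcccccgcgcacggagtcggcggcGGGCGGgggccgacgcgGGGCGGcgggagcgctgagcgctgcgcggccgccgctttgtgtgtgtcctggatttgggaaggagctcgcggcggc
Igf2r, chr17:12769657-12769956, minus strand: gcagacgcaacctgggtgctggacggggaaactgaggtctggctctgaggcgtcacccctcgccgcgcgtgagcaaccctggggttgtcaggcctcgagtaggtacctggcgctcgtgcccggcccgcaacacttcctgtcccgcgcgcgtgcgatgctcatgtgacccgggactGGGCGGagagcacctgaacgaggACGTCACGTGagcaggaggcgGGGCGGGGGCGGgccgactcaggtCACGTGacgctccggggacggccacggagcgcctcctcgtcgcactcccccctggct
The Tfrc window shown was 66.0% GC, held the TGACGT letters at position 14 after the start and contained the peak summit in 5 of the 10 libraries. A further RefSeq window of Tfrc, chr16:32608872-32609171, overlaps it, was 70.0% GC, held GC boxes at -35 and 4 from its own start and contained the summit in all 10. The Igf1r window was 76.0% GC, with CTTTGA at -89 and GC boxes at -43 and -26, and contained the summit in 0 of the 10 libraries. The Igf2r window contained it in 9. In the Igf2r window, 70.7% GC, there were E-boxes at -48 and -7, GC boxes at -75, -31 and -25, and TGACGT on the opposite strand at -52, which shares bases with the first E-box. Over 32817 RefSeq windows of this length, CTTTGA was found in 16.0%, CACGTG in 7.15%, GGGCGG in 35.63% and TGACGT in 7.51%. A match of letters is a description of the window and not evidence of binding.

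In acutely isolated ECs the receptors fell in the order Tfrc, Igf1r, Lrp8, Insr, Lrp1, Lepr, Igf2r and Ager, and in WT cultures the order was Tfrc, Igf2r, Igf1r, Insr, Lrp8, Lrp1, Lepr and Ager. Mean scaled TPM in acutely isolated ECs was 453 ± 210 for Tfrc (SD, n = 2), 374 ± 121 for Igf1r, 151 ± 61.4 for Lrp8, 76.0 ± 14.4 for Insr, 58.6 ± 0.306 for Lrp1, 12.0 ± 9.72 for Lepr, 7.39 ± 2.38 for Igf2r and 0.618 ± 0.616 for Ager. The ranges of Tfrc and Igf1r overlapped, as did those of Lepr and Igf2r, whereas the other neighbors in this order were apart. These levels and the percentiles below sum all transcripts of a gene, and the order depended on which were counted. With full-length transcripts alone (coding, at least 50% as long as the longest), Igf1r was above Tfrc in both libraries (deposited TPM 79.1 and 104 against 9.66 and 51.1). Full-length transcripts held 91.5% and 87.2% of Insr TPM but 8.43% and 6.75% of Lrp1 TPM. Among the 11348 genes with a mean of at least 1 in acutely isolated ECs, Tfrc stood at percentile 97.3, Igf1r at 96.5 and Lrp8 at 89.5. In WT cultures the corresponding percentiles were 85.0 for Tfrc, 66.9 for Igf1r and 24.4 for Lrp8, and that of Igf2r was 69.1 where it had been 26.4. Neighbors in the WT order overlapped except Insr and Lrp8 and, lower down, Lrp1 and Lepr. GFP-negative cells had another leading receptor, with Lrp1 at percentile 98.9 of 13267 genes, although the full-length Lrp1-201 held 11.5% and 10.5% of Lrp1 TPM there.

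**Figure D1:**
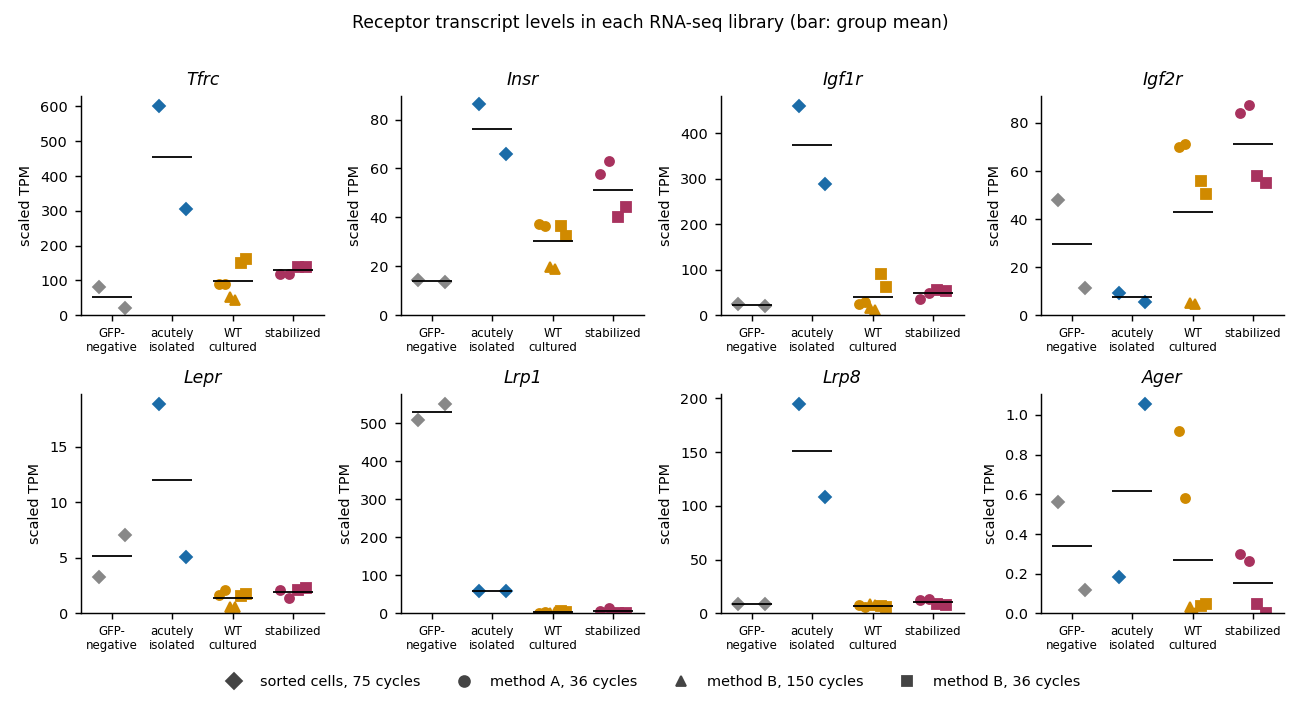
Scaled TPM (y axis, 1 scale per receptor, linear) of the 8 receptors in each of the 14 RNA-seq libraries, with group means as bars and symbols for isolation method and read length. Lrp8 was at 108 and 195 in acutely isolated ECs against 6.24 to 8.44 in WT cultures, and Igf2r was at 4.84 to 5.21 in the 150-cycle cultures against 50.6 to 71.5 in the other WT cultures.

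The main change was a fall in culture: 5 of the 8 receptors were called lower in WT cultured than in acutely isolated ECs, where 10.2% of 13798 genes were called lower, and 0 were called higher, where 13.5% of genes were. The called receptors were Lrp8, Igf1r, Insr, Tfrc and Lrp1, with log2 fold changes from -4.78 to -1.73. Lepr had a change of similar size to Igf1r but was under the TPM minimum in 1 acutely isolated library. Igf2r moved the other way, and Ager had too few counts to compare. Across all genes the median log2 fold change was 0.10, and 0.30 when library size alone was used for scaling, under which the same number of receptors was called. When the wells of each culture experiment were summed to 1 sample, 4 receptors were called lower. Lrp1 lost its call (-1.68, adjusted p = 0.062, edgeR), and the adjusted p values of Lrp8, Igf1r, Insr and Tfrc lay between 0.0023 and 0.033.

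Tfrc (ENSMUSG00000022797.16, chr16:32608920-32632794 on GRCm38, plus strand) encodes transferrin receptor 1, which brings iron-loaded transferrin into cells. Its scaled TPM was 602 and 305 in acutely isolated ECs and, in WT replicates 1 to 6, 90.2, 90.4, 51.7, 44.9, 150 and 162. Every WT culture was below both acutely isolated libraries, and the 150-cycle pair was the lowest. Of 11885 genes with a mean level of at least 1, 24.0% had every WT culture below both acutely isolated libraries and 30.9% above both. The log2 fold change was -2.20 (SE 0.42, adjusted p = 0.0033, edgeR's quasi-likelihood test). This difference depended on which transcripts were counted. The full-length coding transcript Tfrc-201 (4890 bases) held 96.6% to 99.7% of Tfrc TPM in WT cultures but 5.03% and 36.1% in the acutely isolated libraries, where the shorter Tfrc-202 (1860 bases) and 3 transcripts with a retained intron held most of the rest. With Tfrc-201 alone, scaled TPM was 30.3 and 110 in acutely isolated ECs and 43.3 to 162 in WT cultures, the ranges overlapped, and the log2 fold change was -0.64 (adjusted p = 0.33, edgeR), so that Tfrc was no longer called. Erythroid precursors express Tfrc strongly, and the heme synthesis gene Alas2 was at 80.0 and 257 in the acutely isolated libraries and at 0 in every culture. The part of erythroid RNA in the Tfrc difference was not tested.

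Insr (ENSMUSG00000005534.10, chr8:3122061-3279617, minus strand) encodes the insulin receptor, a tyrosine kinase that also carries insulin across brain ECs. Its scaled TPM was 86.2 and 65.8 in acutely isolated ECs, and 37.5, 36.5, 19.9, 19.1, 36.3 and 32.3 in WT replicates 1 to 6. All cultures were lower than both acutely isolated libraries, and replicates 3 and 4 were again the lowest. The log2 fold change was -2.56 (SE 0.59, adjusted p = 0.0079, edgeR), and it was -1.39 (adjusted p = 0.011) when counts were offset by effective transcript length. Without acutely isolated replicate 1 Insr was not called (-2.25, adjusted p = 0.056). In the 150-cycle WT libraries the transcript with a retained intron, Insr-202, held 81.7% and 82.8% of Insr TPM, against 15.5% to 36.8% in the other WT cultures and at most 0.175% in acutely isolated ECs.

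Igf1r (ENSMUSG00000005533.10, chr7:67952827-68233668, plus strand), the receptor tyrosine kinase for insulin-like growth factor 1, was second in acutely isolated ECs by TPM summed over all transcripts. Scaled TPM was 460 and 288 there, and 23.8, 29.1, 16.2, 12.5, 89.6 and 62.7 in WT replicates 1 to 6. Each WT culture was below both acutely isolated libraries, with the method B, 36-cycle pair the highest of the cultures. In counts the change was -3.86 (log2, SE 0.71, adjusted p = 0.0028, edgeR), and under the 22 alternatives it lay between -4.43 and -2.85, with an adjusted p of at most 0.016.

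The cation-independent mannose 6-phosphate receptor, encoded by Igf2r (ENSMUSG00000023830.14, chr17:12682406-12769664, minus strand), sorts lysosomal enzymes and removes insulin-like growth factor 2. It was the exception among the abundant receptors, being low in acutely isolated ECs, at 9.07 and 5.70. In WT cultures it split by experiment, with 70.2 and 71.5 in the method A pair, 5.21 and 4.84 in the 150-cycle pair and 55.7 and 50.6 in the method B, 36-cycle pair. All 36-cycle cultures were above both acutely isolated libraries and the 150-cycle pair was below both. The log2 fold change over the 6 WT cultures was 1.96 (SE 1.12, adjusted p = 0.18, edgeR). Igf2r was called higher with only the 36-cycle WT cultures (2.49, adjusted p = 0.0022), with method A alone (2.66, adjusted p = 0.0063) and with method B at 36 cycles alone (2.31, adjusted p = 0.0096). The 150-cycle libraries were a culture experiment of their own and differed from the others in facility, library type and read length as well, and these cannot be told apart in the values used here. The study also trimmed reads to compare read lengths, and those data were not analysed here. The antisense gene Airn overlaps Igf2r, as annotated antisense genes do Insr, Lrp1 and Lrp8. Salmon was set to detect the library type and to discard fragments that do not match it, which separates strands only in a stranded library. Whether the libraries were stranded is not given in the sources used here, so reads from opposite strands of these loci may not have been told apart.

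Lepr (ENSMUSG00000057722.17, chr4:101717404-101815352, plus strand), the leptin receptor, is known in brain ECs mainly for its short forms. Its scaled TPM was 18.8 and 5.08 in acutely isolated ECs and 1.70, 2.1, 0.572, 0.543, 1.57 and 1.74 in WT replicates 1 to 6. The acutely isolated libraries were far from each other, and both were above every culture. In counts the change was -3.83 on the log2 scale (SE 0.59, adjusted p = 0.0012, edgeR). Lepr was not called, since its deposited TPM was 2.36 in acutely isolated replicate 2, and it was called with the minimum set on scaled TPM. Lepr-202 (3410 bases) held 77.3% of Lepr TPM in acutely isolated replicate 1 and 0% in replicate 2, whereas Lepr-203 (5542 bases) held 45.2% to 100% in WT cultures.

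The receptors of the LDL receptor family, Lrp1 and Lrp8, both fell. Lrp1 (ENSMUSG00000040249.15, chr10:127538161-127621148, minus strand) is a large endocytic receptor for apolipoprotein E, alpha-2-macroglobulin and amyloid beta. Its scaled TPM was 58.8 and 58.3 in acutely isolated ECs and 2.39, 3.11, 2.23, 3.11, 6.64 and 3.32 in WT replicates 1 to 6. The ranges were far apart on this scale, but on the TPM scale most of the gap lay in 1 short transcript. Lrp1-207, 292 bases long, held 91.6% and 93.2% of Lrp1 TPM in the acutely isolated libraries and 0% in the WT cultures, while the full-length Lrp1-201 (14888 bases) held 96.7% and 95.3% of Lrp1 counts there. For Lrp1-201 alone, scaled TPM was 4.96 and 3.94 in acutely isolated ECs and 1.10 to 5.51 in WT cultures, and the ranges overlapped. The log2 fold change of all counts was -1.73 (SE 0.55, adjusted p = 0.030, edgeR), and -4.14 with the offset for effective length. The call was lost without WT replicate 1 (-1.67, adjusted p = 0.053), without acutely isolated replicate 1 (-1.50, adjusted p = 0.15) or replicate 2 (-1.97, adjusted p = 0.063), with the method B, 36-cycle cultures alone (-1.002, adjusted p = 0.088), and with Lrp1-201 alone. In that last case the change was as large and passed the test (-1.735, adjusted p = 0.045), and the call was lost to the TPM minimum. Pericytes express Lrp1, and the pericyte marker Pdgfrb was at 35.0 and 29.2 in the acutely isolated libraries against 2.90 to 10.2 in WT cultures. Whether pericyte RNA contributed to the Lrp1 difference was not tested.

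Lrp8 (ENSMUSG00000028613.14, chr4:107802261-107876840, plus strand), a receptor for apolipoprotein E and reelin, had the largest change of the 8 receptors. Scaled TPM was 195 and 108 in acutely isolated ECs and 7.99, 6.45, 8.44, 7.83, 6.58 and 6.24 in WT replicates 1 to 6. The 6 cultures lay close together whatever the mice, method or read length. The log2 fold change was -4.78 (SE 0.24, adjusted p = 1.5e-05, edgeR), a 27.4-fold difference in counts, and it lay between -5.03 and -4.45 under the 22 alternatives, each of them called. With the 3 full-length coding transcripts alone, scaled TPM was 59.3 and 44.0 in acutely isolated ECs and 3.49 to 7.15 in WT cultures, and the ranges remained apart.

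Ager (ENSMUSG00000015452.14, chr17:34597862-34600936, plus strand), the receptor for advanced glycation end products, was near the limit of detection. Estimated counts were 11 and 42 in acutely isolated ECs, 37 and 5 in GFP-negative cells, 0 to 16 in WT cultures and 0 to 15 in stabilized cultures. WT replicate 4 held 0 of 32867083 counts, which allows up to 3 counts, for counting error only. The groups overlapped, and Ager passed the test in none of the 3 comparisons (lowest adjusted p = 0.51, edgeR).

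**Figure D2:**
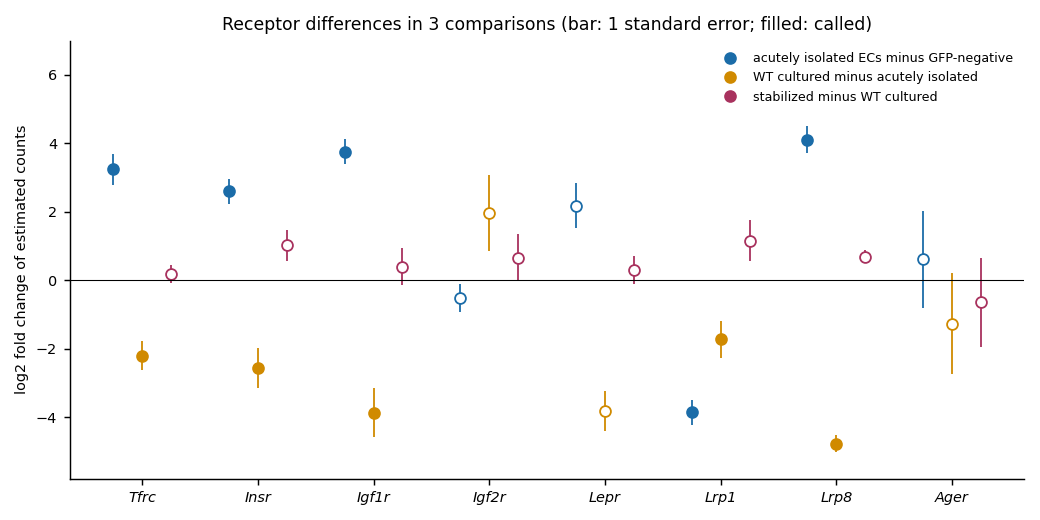
Log2 fold change of estimated counts (y axis, bars are 1 standard error) for each receptor in 3 comparisons, with filled symbols for called differences. Tfrc, Insr, Igf1r and Lrp8 were higher in acutely isolated ECs than in GFP-negative cells and lower in culture, whereas Lrp1 was lower in both comparisons.

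**Figure D3:**
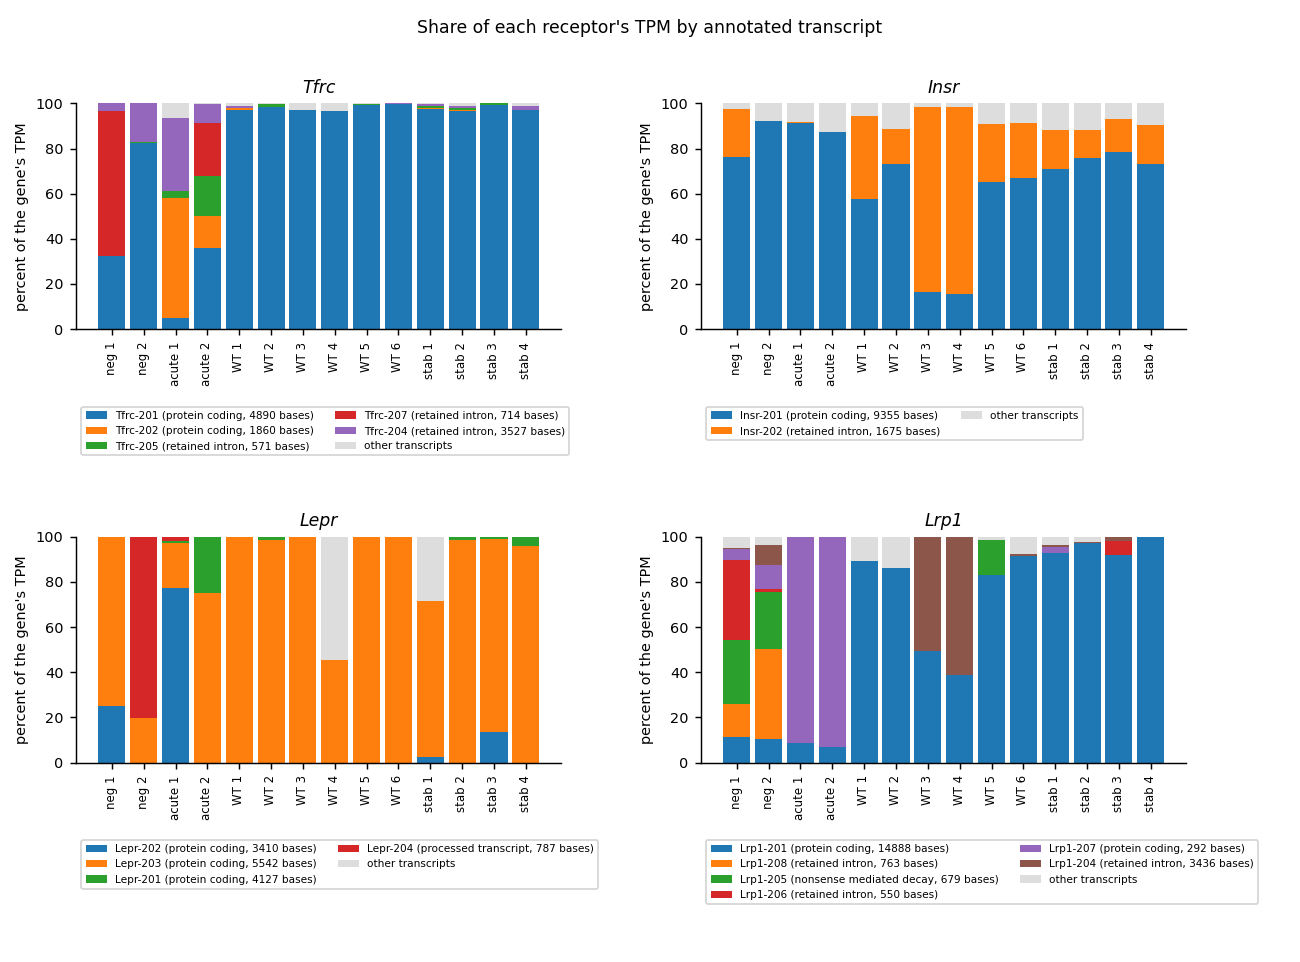
Percent of TPM (y axis) held by each annotated transcript of Tfrc, Insr, Lepr and Lrp1 in the 14 RNA-seq libraries, with transcripts under 10% in each group mean joined as other. Tfrc-201 held 5.03% and 36.1% in acutely isolated ECs against 96.6% to 99.7% in WT cultures, and Lrp1-207 held over 91% in acutely isolated ECs and 0% in WT cultures.

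These transcript shares are given as a description. Exact permutation tests (two-sided) of the share of each receptor's leading transcript could not have passed singly, since the smallest p is 0.0095 for 4 against 6 libraries, 0.036 for 2 against 6 and 0.33 for 2 against 2, before adjustment over 22 tests. The lowest adjusted p was 0.16.

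The comparison of sorted cells asked which of the receptors were carried mainly by ECs. Tfrc, Insr, Igf1r and Lrp8 were higher in GFP-positive than in GFP-negative cells, which makes 4 of the 8 receptors where 8.28% of 15116 genes were called higher, and Lrp1 alone was lower, where 7.55% were. Igf1r was at 460 and 288 in ECs against 23.9 and 19.3 in GFP-negative cells (log2 fold change 3.76, SE 0.36, adjusted p = 0.0020, edgeR). Lrp8 was at 195 and 108 against 8.77 and 9.15 (4.11, SE 0.40, adjusted p = 0.0021). Insr was at 86.2 and 65.8 against 14.4 and 13.7 (2.60, SE 0.36, adjusted p = 0.0050). For these 3 receptors the EC libraries were above both GFP-negative libraries, and the calls were kept under the 14 alternatives run. Of 13228 genes with a mean level of at least 1, 29.6% had both EC libraries above both GFP-negative ones and 32.2% the reverse.

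Tfrc was at 602 and 305 in GFP-positive cells against 81.2 and 20.9 in GFP-negative cells (3.24, SE 0.45, adjusted p = 0.0052, edgeR). With Tfrc-201 alone the change was 1.93 (adjusted p = 0.051) and was not called. Erythroid transcripts were found on both sides of the sort, with Alas2 at 80.0 and 257 in GFP-positive and 11.2 and 69.9 in GFP-negative cells.

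Lrp1 was at 58.8 and 58.3 in GFP-positive cells against 510 and 550 in GFP-negative cells (-3.86, SE 0.36, adjusted p = 0.0020, edgeR). The full-length Lrp1-201 held 11.5% and 10.5% of Lrp1 TPM in GFP-negative cells and 8.43% and 6.75% in GFP-positive cells. With Lrp1-201 alone the log2 fold change was -3.605 (adjusted p = 0.0022, edgeR). GFP-negative cells held astrocyte markers at a summed level of 3575 to 6309, smooth muscle markers at 9294 to 9991 and oligodendrocyte lineage markers at 1506 to 6641, against at most 1463, 731 and 307 in GFP-positive cells. Gja1 alone was at 1457 in the GFP-positive library with the astrocyte sum of 1463. Which of these cell types carried Lrp1 was not tested. Igf2r was at 9.07 and 5.70 against 48.0 and 11.3. The 245-base Igf2r-202 held 78.4% of Igf2r TPM in GFP-negative replicate 1 and 0% in replicate 2, and with the full-length Igf2r-201 alone GFP-negative cells were at 10.4 and 11.0. In counts, Igf2r differed by -0.51 (adjusted p = 0.39, edgeR). Lepr was at 18.8 and 5.08 against 3.30 and 7.01, with overlapping ranges (2.18, SE 0.67, adjusted p = 0.054), and it was called when acutely isolated replicate 2 was left out (2.76, adjusted p = 0.017).

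Stabilization of beta-catenin had no called effect on the receptors when all cultures were compared. In this comparison 0% of 12971 genes were called in either direction by edgeR, although 1422 genes had an unadjusted p under 0.05 and DESeq2 called 15 genes higher and 3 lower, none of them a receptor. Insr was the only receptor whose groups were apart, with 57.8, 63.1, 40.0 and 44.3 in stabilized replicates 1 to 4 against at most 37.5 in WT cultures (1.02, SE 0.45, adjusted p = 0.45). Among 11492 genes with a mean level of at least 1, 2.637% had every stabilized culture above every WT culture and 2.001% the reverse. Lrp8 was at 12.7, 13.7, 9.19 and 8.01 against 6.24 to 8.44, overlapping in 1 stabilized library (0.69, SE 0.19, adjusted p = 0.38 with edgeR and 0.034 with DESeq2, but under the 2-fold threshold). The others did not pass the test, with log2 fold changes of 0.19 for Tfrc, 0.40 for Igf1r, 0.66 for Igf2r, 0.29 for Lepr and 1.16 for Lrp1. Their adjusted p values lay between 0.49 and 0.80.

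Stabilized levels of the remaining receptors were as follows. Tfrc was at 119, 118, 139 and 140, inside the WT range of 44.9 to 162. Igf1r was at 36.4, 48.4, 55.6 and 52.1, also within the WT range. Igf2r was at 84.3, 87.3, 57.8 and 55.0, above the 150-cycle WT pair and nearest to the 36-cycle WT cultures of the same method. Lepr was at 2.07, 1.37, 2.12 and 2.25, close to the 36-cycle WT cultures. Lrp1 was at 6.35, 14.9, 2.05 and 2.27, where the method A libraries were the highest of all cultures but for WT replicate 5, which lay above stabilized replicate 1. Without stabilized replicate 2 the log2 fold change of Lrp1 was 0.31 (adjusted p = 0.92, edgeR).

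The effect of stabilization differed between isolation methods for 5 of the 8 receptors, in a fit on the 8 cultures read for 36 cycles in which 49.5% of 13369 genes showed such a difference. The WT mice also differ between methods (C57BL/6J for A, Ctnnb1flex3/+;Tie2-GFP for B), each method is 1 experiment per genotype, and method, mice and experiment cannot be told apart. Insr and Lrp8 were higher in stabilized wells within both methods. How many of all genes had equal or opposite signs within the methods was not counted, so neither pattern is read as particular to the receptors. Low p values within a method were common among all genes. In separate edgeR fits, 7930 of 12860 genes had an unadjusted p under 0.05 in method A. In method B at 36 cycles 6166 of 12847 genes did. For Lrp8 the log2 fold change was 1.07 within method A (SE 0.08, adjusted p = 3.4e-05, edgeR) and 0.49 within method B (SE 0.08, adjusted p = 0.0028). For Insr it was 0.72 (SE 0.09, adjusted p = 2.3e-04) and 0.45 (SE 0.09, adjusted p = 0.0064), and the difference between methods did not pass (adjusted p = 0.11).

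Lrp1, Igf1r, Tfrc and Lepr had opposite signs within the methods. Lrp1 was 1.94 higher on the log2 scale within method A (adjusted p = 0.0028, edgeR) and -1.02 within method B (adjusted p = 0.077). Igf1r was at 0.74 (adjusted p = 0.0073) and -0.40 (adjusted p = 0.13). Lepr was at -0.51 (adjusted p = 0.014) and 0.32 (adjusted p = 0.11). Tfrc was at 0.19 (adjusted p = 0.054) and -0.22 (adjusted p = 0.053). Igf2r was at 0.18 and 0.09, with no difference between methods shown (adjusted p = 0.47, edgeR). For Lrp1, the stabilized method A wells differed, with a scaled TPM of 6.35 in replicate 1 and 14.9 in replicate 2. Fibroblast markers had summed levels of 31.1 and 71.6 in these wells, against 11.6 to 35.1 in WT cultures. Pdgfrb was at 4.87 and 12.1 in these wells. The part of fibroblast or pericyte RNA in the Lrp1 difference was not tested.

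**Figure D4:**
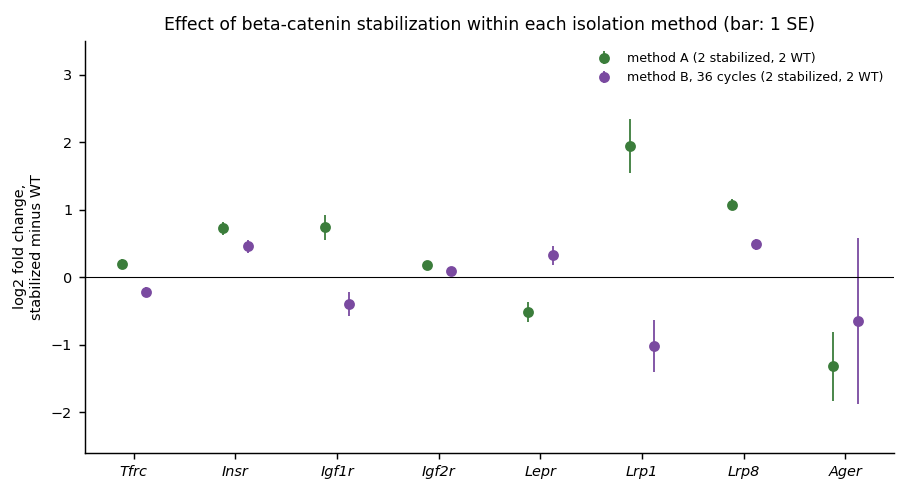
Log2 fold change of stabilized minus WT cultured ECs (y axis, bars are 1 standard error) within method A and within method B at 36 cycles, 2 stabilized and 2 WT wells each. Insr and Lrp8 lie above 0 in both methods, whereas Lrp1 lies at 1.94 in method A and -1.02 in method B.

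The other genes of receptor-mediated transport were described with 7 lists of 136 genes in all, of which 127 could be tested in the culture comparison. In WT cultures 14 of them were called higher and 23 lower, where 13.5% of all genes were called higher and 10.2% lower. Their median log2 fold change was -0.21 against 0.10 for all 13798 genes. Of 19 other receptors 3 were called higher, a share near that of all genes, and 5 lower. Bsg, which encodes basigin, fell by 2.75 on the log2 scale (adjusted p = 3.4e-04, edgeR) and Slc3a2, the CD98 heavy chain, fell by 2.47 (adjusted p = 0.0034). The Wnt co-receptor Lrp6 fell by 2.13 (adjusted p = 0.031, edgeR). The Lrp6 call was lost without WT replicate 1 or 2 or either acutely isolated library. Hbegf, which encodes heparin-binding EGF-like growth factor, rose by 2.37 (adjusted p = 0.020, edgeR), a call lost without either acutely isolated library.

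Of 11 ligands that could be tested, 1 was called in culture, App, which fell by 2.35 on the log2 scale (adjusted p = 0.0014, edgeR). The transferrin gene Trf was at a mean of 9.85 in acutely isolated ECs, 669 in GFP-negative cells and 21.8 in WT cultures. The genes Ins1 and Lep were listed at 0 in the means of all 4 groups. Of the 9 genes for chaperones, proteases and ligases that act on the receptors, Adam10 and Adam17, membrane proteases that shed ectodomains, were lower in culture (-2.34, adjusted p = 0.0085, and -1.71, adjusted p = 8.5e-04). The chaperones of LDL receptor family proteins Lrpap1 and Mesd did not pass the test.

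Beside Tfrc, the iron genes had 1 call higher and 3 lower of 10, with 13.5% and 10.2% over all genes. Slc40a1, the iron exporter ferroportin, was at 782 ± 268 in acutely isolated ECs and 31.6 ± 16.4 in WT cultures (SD, n = 2 and 6), a log2 fold change of -3.48 (adjusted p = 0.0012, edgeR). Ftl1, the ferritin light chain, was at 742 ± 285 and 5405 ± 2413 (2.69, adjusted p = 0.0023). Steap3, an endosomal iron reductase, and Ireb2, which stabilizes Tfrc mRNA when iron is low, fell by 2.09 (adjusted p = 0.0086) and fell by 1.83 (adjusted p = 0.0025). The Steap3 call was lost without acutely isolated replicate 1 and the Ireb2 call with the length offset. Slc40a1 is also expressed by erythroid cells, and the part of erythroid RNA was not tested.

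Among 24 adaptors and signaling genes, 4 were called higher and 3 lower, near the shares of all genes (13.5% and 10.2%). Grb14, an inhibitor of insulin receptor signaling, fell by 3.77 on the log2 scale (adjusted p = 0.0041, edgeR). Socs3, an inhibitor of leptin receptor signaling, rose by 2.15 (adjusted p = 0.018), the adaptor Gulp1, which binds Lrp1, by 2.11 (adjusted p = 0.010), and Shc1, an adaptor of receptor tyrosine kinases, by 2.08 (adjusted p = 8.1e-04). The calls of Socs3 and Gulp1 were lost without acutely isolated replicate 1, and Shc1 was not called with the length offset.

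The clathrin machinery had 3 genes called higher and 6 lower of 26, where 13.5% and 10.2% of all genes were. Dnm3, a dynamin, fell by 3.45 (adjusted p = 2.7e-04, edgeR), Fcho2, which acts early in clathrin-coated pits, fell by 2.86 (adjusted p = 4.6e-04) and Hip1, a clathrin-binding adaptor, fell by 2.52 (adjusted p = 0.0067). Ap2s1, the small subunit of the AP-2 adaptor, rose by 2.58 (adjusted p = 7.9e-04). Clathrin heavy chain, Cltc, was at a mean of 279 in acutely isolated ECs and 287 in WT cultures and was not called (-0.26, adjusted p = 0.64). In endosomal sorting, 3 were called higher and 3 lower of 28, near the same shares. Rab11fip1, a Rab11 effector of recycling, fell by 4.44 (adjusted p = 1.4e-04), and Snx3, a sorting nexin that acts with retromer in transferrin receptor recycling, fell by 1.55 (adjusted p = 0.020). The retromer subunit Vps29 rose by 1.51 (adjusted p = 0.034) and Snx4 by 1.50 (adjusted p = 0.0041).

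Against GFP-negative cells, ECs had 29 of 130 listed genes called higher and 15 called lower, where 8.28% and 7.55% of all genes were, with a median log2 fold change of 0.48 against -0.06 for all genes. Under stabilization 0 of 118 were called.

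ATAC-seq peaks at the receptors' 5′ ends were present in nearly all EC libraries. A peak within 1000 bases of the GENCODE 5′ end was listed in all 10 libraries for Tfrc, Insr, Igf1r, Lrp1 and Lrp8, and in 9 for Igf2r and Lepr, both lacking it in WT replicate 2, which had 33122 peaks. No library listed one for Ager. Between 50.3% and 61.7% of the 21847 protein-coding genes had such a peak, by library. Peaks were called by the authors in each library separately, and libraries differed from 31779 to 98732 peaks, so fold enrichments are described without a test.

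Promoter peaks of the receptors that fell in culture were listed at overlapping fold enrichments in WT cultured and acutely isolated ECs. For Lrp8 the fold enrichment over local background was 3.43 and 3.90 in acutely isolated ECs, 3.60 to 6.29 in WT cultures and 4.80 to 5.19 in stabilized cultures. For Igf1r it was 8.71 and 8.86, then 6.37 to 12.3 and 10.3 to 10.7. Tfrc had the strongest peak, at 17.8 and 18.9, 13.2 to 22.4 and 16.3 to 17.0. For Tfrc and Igf1r the range over WT cultures spanned both acutely isolated values, and for Lrp8 1 of them lay below that range. Both stabilized libraries were above both acutely isolated ones for Lrp8, Igf1r and Insr (13.6 and 15.01) and below both for Tfrc.

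The Insr peak was at 10.8 and 13.3 in acutely isolated ECs and 8.86 to 18.6 in WT cultures. Lrp1 was at 9.59 and 9.94 against 4.79 to 10.7, and its summit lay at -713 to -554 bases from the annotated 5′ end. The Igf1r summit lay at -1302 and -1297 bases from the 5′ end in acutely isolated ECs and at -1022 to -958 in cultures. In Igf2r, where RNA differed most between WT experiments, the peak was at 8.59 and 8.53 in WT replicates 3 and 4 and at 9.49 and 10.6 in replicates 5 and 6. In the method A pair, where Igf2r RNA was highest, it was at 4.85 in WT replicate 1 and not listed in replicate 2, the libraries with the fewest peaks among WT cultures. ATAC-seq and RNA-seq libraries are separate. WT replicates of the same number shared an isolation method, whereas stabilized replicates 1 and 2 did not.

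Across the gene and 10000 bases on either side, Igf1r held 10 peaks in each acutely isolated library, 14 to 42 in WT cultures and 35 and 38 in stabilized cultures. Lrp1 held 1 peak in each acutely isolated library, 2 to 10 in WT cultures and 7 and 9 in stabilized cultures. Lrp8 held 5 and 7, 4 to 7, and 4 and 5. The WT cultures with the fewest peaks in all, replicates 2 and 1 with 33122 and 50395, also had the fewest at Igf1r, 14 and 19. Acutely isolated libraries had 31779 and 37384 peaks, so the number of peaks listed moved with the number at Igf1r and its part was not tested.

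**Figure D5:**
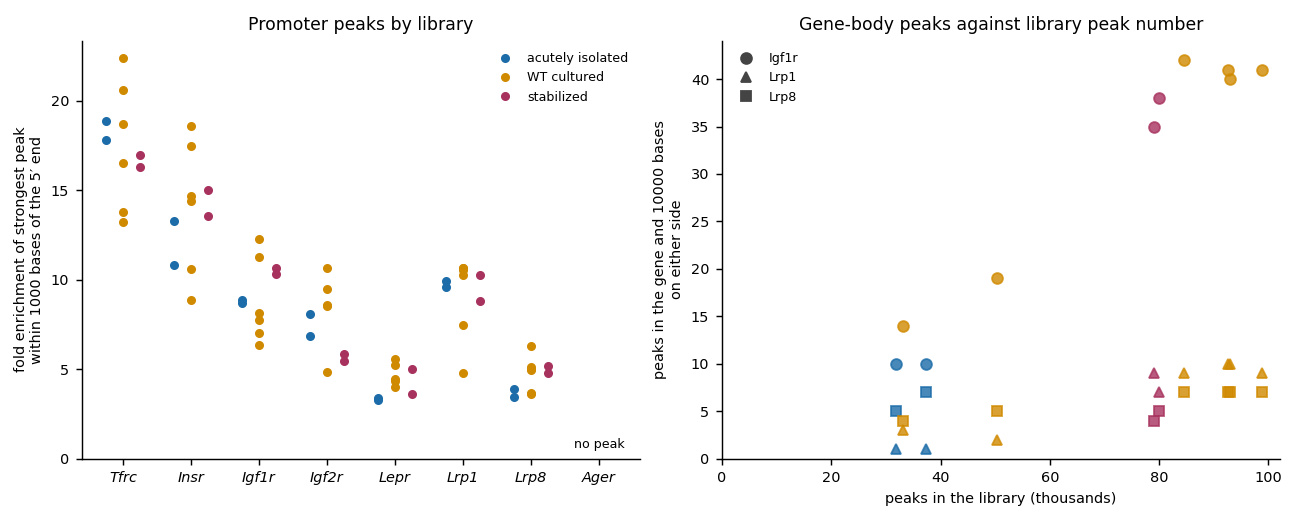
Left, fold enrichment over local background (y axis) of the strongest peak within 1000 bases of each receptor's 5′ end in the 10 ATAC-seq libraries. Right, peaks in and near Igf1r, Lrp1 and Lrp8 (y axis) against the number of peaks in the library (x axis, in units of 1000), where Igf1r had 10 peaks in both acutely isolated libraries and 14 in the WT culture with a similar number of peaks.

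For each receptor the genes with the most similar pattern were found by the root-mean-square difference of log2(TPM + 1), centered per gene, over the 14 libraries, on deposited TPM among 10607 genes. They were Slfn3 and Cpd for Tfrc (0.41 and 0.42), Dock4 and Cyb5d1 for Insr (0.19 and 0.26), Col4a3bp and Osmr for Igf1r (0.44 and 0.48) and Dock6 and Tshz2 for Lrp8 (0.37 and 0.38). For Igf2r they were Tbc1d9 and Hist2h3c2 (0.48 and 0.53), for Lepr Pdxdc1 and Ercc2 (both 0.29) and for Lrp1 Acsl6 and Lyz2 (0.67 and 0.72). On scaled TPM Dock4 and Cyb5d1 were again first and second for Insr, and Col4a3bp first for Igf1r, while Slfn3 ranked 27 for Tfrc, Tbc1d9 13 for Igf2r and the genes for Lepr 20 and 22. Of the other first-named genes, Dock6 ranked 3 and Acsl6 7. Since deposited TPM is not on one scale across libraries, these likenesses are descriptions of the deposited values. For Ager, near 0 throughout, the nearest genes Zfp780b and Nasp ranked 510 and 275 on scaled TPM, and nothing is drawn from them. Dock6 was at a mean of 179 in acutely isolated ECs, 27.4 in GFP-negative cells, 13.4 in WT and 19.4 in stabilized cultures, beside 151, 8.96, 7.25 and 10.9 for Lrp8.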

How the data were processed

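For RNA-seq, the authors trimmed adaptors where needed and quantified transcripts of GENCODE M21 with Salmon 0.14.0, with its bias models. The deposited files hold estimated counts, not normalized, effective lengths in bases, and TPM, which the authors obtained by dividing by effective length and scaling each library to one sum. Data of cerebrum and cerebellum were combined by the authors in the acutely isolated and GFP-negative libraries. For ATAC-seq, the authors aligned reads to GRCm38 with HISAT2 2.1.0, removed duplicates with Picard and ran MACS2 2.1.2 on each library. The deposited peak lists give a fold enrichment over local background and a −log10 q. Peaks with a fold enrichment over 2 and a −log10 q over 2 were kept, after the study's filter.

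Estimated counts and TPM were summed per gene symbol, for 21847 protein-coding genes, and counts were rounded. TPM of protein-coding genes was brought to one scale with TMM factors, a step chosen after seeing the data. The count test was glmQLFTest of edgeR 4.0.16 (R 4.3.3) after filterByExpr and TMM scaling, with each comparison fitted on its own libraries. The study used EBSeq, which was not run here. DESeq2 1.42.0, other scalings and filters, and the omission of single libraries served as alternatives. Standard errors were derived from the fold change and the F statistic. The receptors, gene lists and motifs were chosen with earlier results of these data known. Pathway genes were named when they were among the 4 largest called culture changes of their list. Trf, Ins1, Lep, Lrpap1, Mesd, Cltc, Alas2 and Pdgfrb were named after their values were seen. The script for the count test was checked on simulated data. One record of a stabilized RNA-seq library (replicate 4) lists genomic DNA as its molecule, and its title was followed. Another 6 samples, of cerebrum, were not analysed here.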

Additional observations from a re-analysis of the deposited data

Results flagged for a closer look

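The effect of beta-catenin stabilization differed between isolation methods for 5 receptors by a test of the difference itself (edgeR's quasi-likelihood test, Benjamini-Hochberg adjusted, method B minus method A). The log2 differences were -2.96 for Lrp1 (adjusted p = 0.0026), -1.14 for Igf1r (adjusted p = 0.0063), -0.58 for Lrp8 (adjusted p = 0.0037), -0.41 for Tfrc (adjusted p = 0.012) and 0.84 for Lepr (adjusted p = 0.0083). Lrp8 was higher in stabilized wells within both methods, whereas the other 4 had opposite signs. With 49.5% of all genes showing such a difference, it is not particular to the receptors, and each method is 1 experiment per genotype. The part of fibroblast or pericyte RNA in the Lrp1 value was not tested.

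Lrp1 in WT cultured ECs stood out in replicate 5, at a scaled TPM of 6.64 against at most 3.32 in the other 5 wells, by Dixon's ratio of 0.754. It was 1 of 23 groups examined, and chance marks about 1 group in 20.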

How the results depend on the processing

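Of 480 receptor values under alternatives, 449 kept their direction and side of the threshold, and the causes of the changes were not tested. Without a TPM minimum, calls in culture numbered 3160 higher and 2829 lower and those in ECs 2978 lower against GFP-negative cells. With wells summed, 834 genes were lower in culture. With full-length transcripts alone 3 receptors were called lower in culture, and leaving out single libraries gave 3 to 5. Of the receptors, 1 (Igf2r) was called higher with 36-cycle cultures, method A or method B alone. Against GFP-negative cells, scaling by library size gave 929 genes higher and 1419 lower with a median log2 fold change of -0.44, the length offset gave 653 and 897, and leaving out single libraries gave 655 to 1661 higher, against 1252 higher and 1142 lower in the chosen fit. In the stabilized comparison, method A alone gave 693 genes higher and 120 lower, with 1 receptor higher (Lrp8), method B alone 139 and 37, and DESeq2 15 and 3. Signs turned for Ager in culture (0.28 with method A, 0.20 with full-length transcripts, and -2.24 to 0.27 leaving out libraries) and against GFP-negative cells (-0.96 to 2.49 leaving out libraries). Under stabilization they turned for Tfrc (-0.052 in 36-cycle cultures, -0.23 in method B), Igf1r (-0.016 and -0.41), Lepr (-0.074 in 36-cycle cultures, -0.50 in method A) and Lrp1 (-1.03 in method B). The method difference of Igf2r turned to 0.013 with library size scaling. Of 506 values of named pathway genes, 23 lost their call. A promoter peak in all 10 libraries was found for 5 receptors, and for 4 with a window of 500 bases or a stricter filter. Where 1 library of a sorted group was left, it was assumed to vary like the other group.

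With a replicate block, Ager in culture turned to 0.60 and the stabilized comparison gave 138 genes higher and 44 lower, with no call of a receptor gained or lost. Deviations of WT and stabilized libraries of the same number correlated at 0.40, 0.47, -0.04 and 0.03. Those of WT replicate 1 with stabilized replicate 2 correlated at 0.33, and of WT replicate 2 with stabilized replicate 1 at 0.53. Those of WT replicates 1 and 2 with stabilized replicates 3 and 4, across methods, lay between -0.52 and -0.36. Within method A unlike numbers thus correlated about as much as like ones, so the numbers do not pair WT with stabilized samples. Deviations of GFP-positive and GFP-negative libraries of the same number correlated at 0.07, and whether those libraries were paired was not settled.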
